A study of Mus musculus with 6 samples.

Results

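Relaxin-3 is a small peptide of the insulin and relaxin superfamily that neurons cut from a longer precursor. The genes described here are the ligand genes Rln3 (relaxin-3) and Rln1 (relaxin) and the receptor genes Rxfp1, Rxfp2 and Rxfp3, 5 genes of the 17072 for which the array had a probeset annotated to a single gene. They were found by gene symbol, each had 1 such probeset, and all 5 were among the 16663 genes that passed the signal filter. Rln3 was chosen by its CGP minus CON difference, known from earlier work on these same arrays, and the other 4 genes because they belong to its family. The difference is therefore given below as a description without a p-value.

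Hypothalamic RNA of female C57Bl/6J offspring, 21 weeks old, was hybridised to 6 Mouse Gene 1.0 ST arrays (Affymetrix). The 3 arrays of the control group (CON) carried pooled RNA of offspring labelled as control, and the labels do not say what their mothers received in place of the drug. The 3 arrays of the CGP group carried pooled RNA of offspring whose mothers were given CGP 39551, a competitive antagonist of the NMDA type of glutamate receptor, by mouth at 5 mg/kg during the whole of pregnancy and up to weaning. Each group stood for 18 mice whose RNA was pooled, and the labels do not say whether its 3 arrays shared 1 pool. The spread between arrays may thus be technical, and the group and its pool cannot be told apart. Because the RNA came from whole tissue, fewer cells of a type and less RNA per cell cannot be told apart either.

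In the brain, relaxin-3 is made mainly by GABA neurons of the nucleus incertus in the pons, with smaller groups in the pontine raphe, the periaqueductal grey and the area above the substantia nigra. Their axons reach the septum, hippocampus, thalamus and hypothalamus, where RXFP3, the main receptor of relaxin-3, couples to inhibitory G proteins. The system is known for parts in arousal, in the response to stress and in feeding. RXFP1 is the receptor of relaxin and also binds relaxin-3, RXFP2 is the receptor of insulin-like peptide 3, and both have a large leucine-rich ectodomain and couple to stimulatory G proteins.

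The upstream sequence of both ligand genes is shown because they are the members with a match to a searched motif, at unlike distances from the annotated start. A link between these matches and the array signals was not tested. RefSeq (assembly GRCm38.p6) gave a promoter for 4 of the 5 genes, and the 250 bases before the annotated start are printed 5′ to 3′ on the strand of the gene. Capitals mark matches to TATAAA, the core of the TATA box, and to AGGTCA, the core site of many nuclear receptors, both searched on both strands together with the cyclic AMP response element TGACGTCA. The first sequence lies at chr8:84044980-84045229 and the second at chr19:29334671-29334920, both on the minus strand.
Rln3: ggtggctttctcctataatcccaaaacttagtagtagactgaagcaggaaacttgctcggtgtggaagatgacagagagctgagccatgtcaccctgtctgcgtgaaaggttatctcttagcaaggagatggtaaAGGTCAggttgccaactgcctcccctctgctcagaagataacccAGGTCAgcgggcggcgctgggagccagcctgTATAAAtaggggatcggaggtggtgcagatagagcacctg
Rln1: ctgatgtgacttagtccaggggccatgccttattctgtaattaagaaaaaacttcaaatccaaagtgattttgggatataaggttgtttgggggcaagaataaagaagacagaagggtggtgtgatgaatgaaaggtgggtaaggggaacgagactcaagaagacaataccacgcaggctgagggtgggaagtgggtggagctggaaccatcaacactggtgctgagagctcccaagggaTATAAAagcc
Rln3 held TATAAA starting 40 bases before the annotated start and AGGTCA at 115 and at 71 bases before it. Rln1 held TATAAA starting 10 bases before its start and no AGGTCA. Neither upstream sequence held TGACGTCA, and those of Rxfp2 and Rxfp3 held none of the 3 motifs. Of 32851 promoters of the same length, 12.4% held TATAAA, 14.0% AGGTCA and 1.55% TGACGTCA. The match is one of letters and says nothing about a factor bound there.

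Rln3 had a lower signal in CGP. Its log2 RMA signal, on which a difference of 1 is a 2-fold change, was 8.52, 8.55 and 8.58 on the CON arrays and 8.02, 8.03 and 8.05 on the CGP arrays. The 2 groups did not overlap: the lowest CON array lay 0.47 above the highest CGP array, while the arrays of a group spanned 0.059 in CON and 0.031 in CGP. The group means were 8.55 ± 0.030 and 8.03 ± 0.016 (SD, n = 3 arrays each), a difference of -0.52 (standard error 0.035, 95% interval -0.60 to -0.44), or 1.43-fold. Of all 18239 tested probesets, 4 had a more negative difference than Rln3, since it stood at rank 5 from the lowest, and 0.0384% had a larger absolute difference. Rln3 was chosen for this difference, so that its rank is a description and no evidence. With 1 array left out at a time the difference of Rln3 stayed between -0.53 and -0.50, which the narrow spread within each group fixed in advance.

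Rln1, the gene of the relaxin that acts on the reproductive tract and on connective tissue, did not show this separation. Its signal was 7.87, 7.71 and 7.77 on the CON arrays and 7.81, 7.75 and 7.57 on the CGP arrays. The values of the groups were mixed, and CGP replicate 3 was the lowest of the 6. The means were 7.78 ± 0.078 and 7.71 ± 0.13 (SD, n = 3 arrays each), and the difference of -0.074 had a 95% interval of -0.23 to 0.085. Leaving out 1 array moved it to between -0.12 and -0.0024, the second of these without CGP replicate 3.

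Among the receptors, Rxfp3, whose product binds relaxin-3 in the hypothalamus, had signals of 7.29, 7.37 and 7.43 in CON and 7.43, 7.39 and 7.30 in CGP. Both groups covered nearly the same range. The difference was 0.015 (standard error 0.051, 95% interval -0.10 to 0.13), which on the linear scale runs from 0.93 to 1.10 times the CON level. A change of the size found for Rln3 lies outside this interval, which covers the spread between arrays and not that between mice.

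Rxfp1, the relaxin receptor, had signals of 7.10, 7.07 and 7.06 in CON and 7.19, 7.22 and 7.04 in CGP. CGP replicates 1 and 2 lay above every CON array and CGP replicate 3 below every one. The SD was 0.020 in CON and 0.098 in CGP (n = 3 arrays each), and the difference of 0.073 had a 95% interval of -0.047 to 0.19. It was 0.13 without CGP replicate 3 and 0.038 to 0.085 without any other single array.

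Rxfp2, the receptor of insulin-like peptide 3, had the signals closest to the filter at 6, namely 6.53, 6.59 and 6.44 in CON and 6.57, 6.44 and 6.46 in CGP. The groups overlapped almost wholly. The difference was -0.029 (standard error 0.053, 95% interval -0.15 to 0.093). As 3 genes of the Y chromosome, which female tissue lacks, lay between 4.31 and 5.62 on these arrays, signals close to 6 hold a large share of background, and a change in such a gene appears smaller than it is.

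In the fit over all probesets, 0.280% were called at an adjusted p under 0.05, 0.154% higher and 0.126% lower in CGP (28 and 23 probesets, or 37 and 18 with each array centred on its median), and the groups did not overlap in either direction for 17.5% of probesets, with CGP lower for 9.95% and higher for 7.59%. Rln3 was the only one of the 5 members whose groups did not overlap, and since Rln3 was chosen for this difference nothing is read from the count. None of the intervals of the other 4 members reached the size of the Rln3 difference. These intervals cover the spread between arrays only, and for Rxfp2 a change appears smaller than it is.

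**Figure D1:**
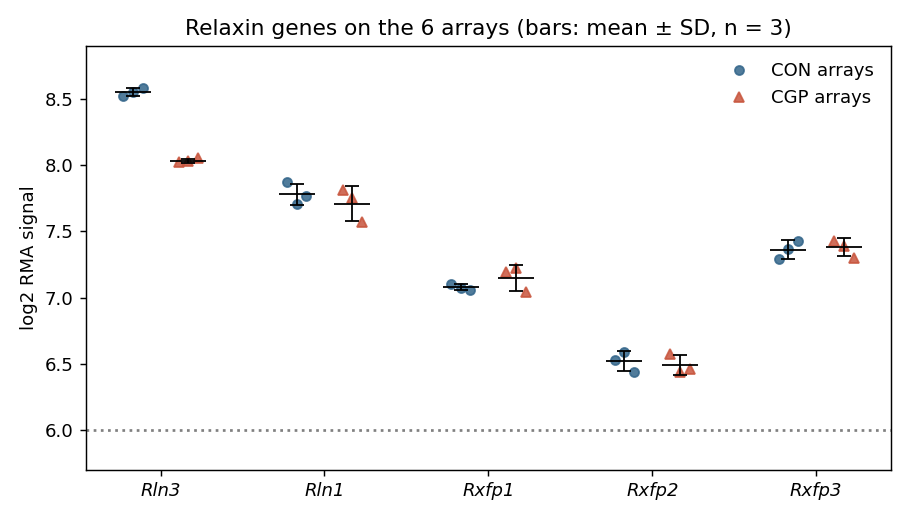
Log2 RMA signal (vertical axis) of the 5 relaxin genes on the 3 CON arrays (circles) and the 3 CGP arrays (triangles), with the mean and SD of each group as black bars and the signal filter at 6 as a dotted line. The groups lie apart for Rln3, at 8.55 in CON and 8.03 in CGP, and overlap for Rln1, Rxfp1, Rxfp2 and Rxfp3; levels of different genes come from different probes and are not to be set against each other.

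Of the rest of the family, Rxfp4, the receptor of insulin-like peptide 5, and Insl5, the gene of that peptide, were measured, while Insl3 and Insl6 were not analysed here. Rxfp4 had signals of 6.87, 6.87 and 6.68 in CON and 6.89, 6.96 and 6.97 in CGP. The CGP arrays were all higher, by little, and the difference of 0.14 (standard error 0.058) did not pass the test (adjusted p = 0.444 from limma over all tested probesets). Insl5 lay between 6.84 and 6.95 in CON and between 6.76 and 7.03 in CGP, with a difference of -0.029 (adjusted p = 0.913 from limma). Neither gene of this list was called by limma, and 1 had an unadjusted p under 0.05. Here and below, the share of all tested probesets with an unadjusted p under 0.05 was not computed. Nothing is therefore read from such counts. Only 0.280% of all tested probesets were called in either direction. A list of this size with no called gene is near that share, and nothing is read from it either.

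**Figure D2:**
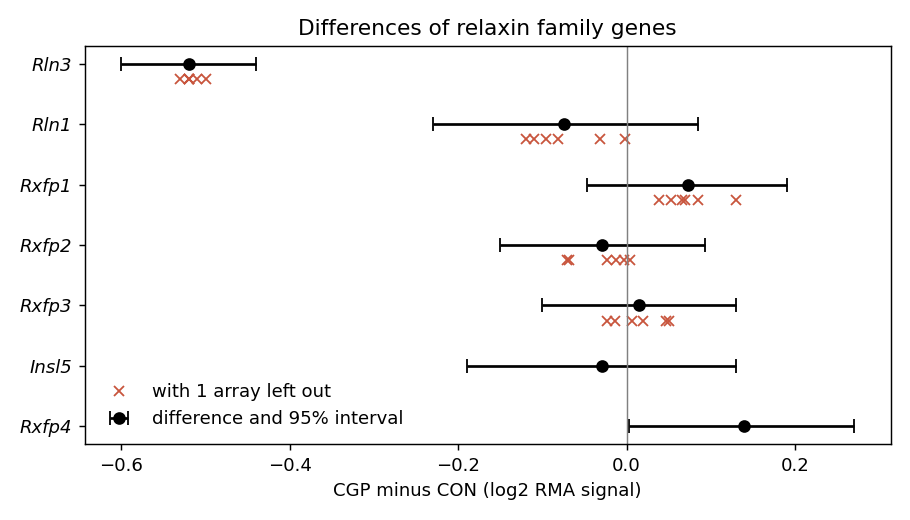
Difference in log2 RMA signal, CGP minus CON (horizontal axis), of the 5 relaxin genes and of Insl5 and Rxfp4, with 95% intervals from limma as bars; crosses give the difference of a member with each of the 6 arrays left out in turn. Rln3 lies at -0.52 with all its crosses between -0.53 and -0.50, and the intervals of the other members include 0.

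Prorelaxin-3 is cut by proprotein convertases and trimmed by carboxypeptidase E. Of 9 genes of prohormone processing, 8 were tested, none was called by limma and 0 had an unadjusted p under 0.05. The list had a median difference of 0.0052, beside -0.0031 over all tested probesets. Pcsk1, the gene of prohormone convertase 1, ranged from 9.34 to 9.49 in CON and from 9.22 to 9.42 in CGP and differed by -0.10 (adjusted p = 0.585 from limma), and Pcsk7, a convertase of the trans-Golgi network, differed by 0.091 (adjusted p = 0.556). These were the largest differences of the list in absolute size.

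The relaxin receptors act through G proteins, adenylyl cyclases, protein kinase A, ERK and arrestins. Of 29 genes of these, 25 were tested, none was called by limma (1 at an unadjusted p under 0.05), 11 were higher and 14 lower, and the median difference was -0.0098. Adcy1, a calmodulin-stimulated adenylyl cyclase, had signals of 9.41, 9.38 and 9.42 in CON and 9.59, 9.57 and 9.58 in CGP. Its groups lay apart, but the difference of 0.18 (standard error 0.034) did not pass the adjusted test (adjusted p = 0.118 from limma). It passed under 1 alternative, a trended and robust variance prior. Prkar2b, a regulatory subunit of protein kinase A, differed by -0.090 (adjusted p = 0.595 from limma).

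Relaxin-3 is known to act on hypothalamic neurons of the oxytocin and vasopressin type and on the feeding and gonadotropin axes. Of 11 peptide genes of these systems, 10 were tested and none was called by limma (1 at an unadjusted p under 0.05), 5 were higher and 5 lower, and the median difference was -0.0015. Gnrh1, the gene of gonadotropin-releasing hormone, had signals of 8.08, 8.12 and 8.13 in CON and 8.23, 8.22 and 8.19 in CGP, apart by a small difference of 0.11 (standard error 0.036) that did not pass (adjusted p = 0.364 from limma). Npy, the gene of the feeding peptide neuropeptide Y, differed by -0.094 (adjusted p = 0.487). Oxt (difference 0.061, adjusted p = 0.643 from limma) and Avp (-0.0093, adjusted p = 0.952), chosen after their values were seen, did not pass either.

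Through RXFP1, relaxin is known to change the turnover of matrix and the tone of vessels. Of 17 matrix and vascular genes, all tested, 2 fell, beside 0.126% of all tested probesets called lower. None rose and 15 did not pass, and the median difference was 0.0040. Timp1, an inhibitor of metalloproteinases, had signals of 7.57, 7.61 and 7.63 in CON and 7.07, 7.15 and 7.13 in CGP. The groups lay 0.42 apart, and the gene fell by 0.49 (standard error 0.039, adjusted p = 0.00524 from limma). Acta2, the smooth muscle actin gene, had signals of 9.29, 9.25 and 9.25 in CON and 8.94, 8.95 and 8.84 in CGP, and fell by 0.35 (standard error 0.042, adjusted p = 0.0249 from limma). Timp1 passed in all 12 alternatives and Acta2 in 5 of them, with an adjusted p of 0.0632 to 0.132 without any 1 array. The fall of Timp1 was known from these arrays when the list was written, so that the list is no independent evidence. Whether relaxin had a part in the fall of Timp1 or of Acta2 was not tested. The collagen genes Col1a1, Col1a2 and Col3a1 had differences of only -0.014, 0.0040 and 0.024.

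As relaxin-3 neurons lie in the pons and midbrain, markers of those regions were set beside Rln3. Midbrain dopamine genes were lower in CGP more often than not: 14 of 16 had a negative difference, against 52.1% of all tested probesets, 10 of 16 had every CGP array below every CON array, against 9.95%, and the list's median difference was -0.14. This list was chosen with earlier results of these arrays known. Its genes were read on the same arrays of pooled RNA and are not independent draws. The shares are therefore a description and no independent evidence. Only Slc6a3, the dopamine transporter gene, passed the test, beside 0.126% of all tested probesets called lower, and none rose. Of the 16, 9 had an unadjusted p under 0.05, a count from which nothing is read. Among these 9 was Nr4a2, a transcription factor gene of dopamine neurons, which went the other way. Nr4a2 had signals of 9.76, 9.81 and 9.84 in CON and 9.97, 10.01 and 9.89 in CGP, all CGP arrays above the CON arrays, with a difference of 0.15 (adjusted p = 0.303 from limma). It was singled out after its values were seen. The signals of Slc6a3 were 10.99, 10.97 and 11.02 in CON and 10.57, 10.66 and 10.57 in CGP, so that Slc6a3 fell by 0.39 (standard error 0.041, adjusted p = 0.0165 from limma), with adjusted p values from 6.88e-06 to 0.106 over the 12 alternatives. It stayed under 0.05 without CGP replicate 2 (0.0341) and lost its call without any other single array (up to 0.105). Th, the rate-limiting enzyme of dopamine synthesis, had signals of 10.35, 10.27 and 10.29 in CON and 10.04, 10.09 and 10.02 in CGP, apart by -0.25 (adjusted p = 0.0576 from limma). Averaged over the 16 genes, the signal of an array was 9.09 to 9.13 in CON and 8.95 to 9.00 in CGP. Other genes of the list, chosen after their values were seen, hardly differed and had overlapping groups. These were Pitx3 (-0.013), Chrnb3 (0.021), Ntsr1 (-0.021) and Foxa1 (-0.066). The RNA came from whole tissue, so the list does not show which cells or region its signal came from. The lower signal of most genes of the list stood on the same arrays as that of Rln3. All 16 genes had a mean above the filter, and their part in the Rln3 result was not tested.

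The lists of other caudal regions gave smaller values. Of 7 genes of serotonin neurons of the raphe, 6 were tested, none was called by limma (3 at an unadjusted p under 0.05), 4 were lower and the median difference was -0.068, which turned to 0.010 with a mean of at least 7. Tph2, the brain enzyme of serotonin synthesis, ranged from 6.19 to 6.46 in CON and from 5.98 to 6.24 in CGP, and its difference of -0.22 did not pass (adjusted p = 0.412 from limma). Slc6a4, the serotonin transporter gene, differed by -0.10 (adjusted p = 0.643), and the receptor gene Htr5b was 0.29 higher (adjusted p = 0.409). Of 12 further midbrain genes, 10 were tested and none was called by limma (4 at an unadjusted p under 0.05), with 6 lower and a median difference of -0.076. Gata3, a transcription factor of midbrain GABA and of raphe neurons, had CGP arrays that all lay below the CON arrays, with a difference of -0.20 (adjusted p = 0.139 from limma), and Pou4f1 differed by 0.20 (adjusted p = 0.399). The averaged signal of the raphe genes was 7.10 to 7.24 in CON and 7.11 to 7.19 in CGP, and that of the further midbrain genes 7.46 to 7.53 and 7.41 to 7.49. Both pairs of ranges overlapped, and the part of these genes in the Rln3 result was not tested.

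Pons and hindbrain genes had no settled direction. Of 16, 9 were tested and none was called by limma (2 at an unadjusted p under 0.05), 6 were higher and 3 lower, and the median difference was 0.028. This median turned to -0.049 with a mean of at least 7, where only 2 genes, Glra1 and Hoxb3, were left. It turned to -0.0089 without CON replicate 1 and to -0.0090 without CGP replicate 3, and was 0.091 without CGP replicate 1. The averaged signal was 7.08 to 7.11 in CON and 7.08 to 7.20 in CGP. Hoxb3, a homeobox gene of the hindbrain, differed by 0.028 (adjusted p = 0.924 from limma), Atoh1 by 0.20 (adjusted p = 0.306) and Phox2a by 0.17 (adjusted p = 0.489). The means of Atoh1 and Phox2a over the 6 arrays, 6.71 and 6.68, lay close to the filter. Glra1, singled out after its values were seen, had the highest signals of the list, 9.55 to 9.65 in CON and 9.43 to 9.56 in CGP. Its difference was -0.13 (adjusted p = 0.412 from limma). Dbh, which marks noradrenaline neurons of the locus coeruleus close to the nucleus incertus, was below the filter, with signals of 5.98 to 6.09 in CON and 5.86 to 6.02 in CGP.

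Genes known in relaxin-3 neurons of the nucleus incertus, most of which hypothalamic neurons use as well, did not pass limma's test in any of 12 cases, and 3 had an unadjusted p under 0.05. Of these 9 were lower and 3 higher, with a median difference of -0.024 and an averaged signal of 9.75 on every CON array and 9.71 to 9.75 in CGP. Crhr1, the receptor through which corticotropin-releasing factor excites these neurons, had signals of 8.70, 8.66 and 8.66 in CON and 8.56, 8.50 and 8.53 in CGP. The groups lay apart, and the difference of -0.14 (standard error 0.035) did not pass (adjusted p = 0.241 from limma). Cck, a peptide gene, was 0.15 higher (adjusted p = 0.288). Nmb, the neuromedin B gene, singled out after its values were seen as a peptide that some relaxin-3 neurons share, ranged from 6.88 to 7.10 in CON and from 6.87 to 7.08 in CGP.

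The labelled tissue was checked with 21 defining genes of the hypothalamus, of which 20 were tested, all with signals of at least 6.93 on each array. Hcrt, the orexin gene, lay between 12.45 and 12.56 and Pmch, the gene of melanin-concentrating hormone, between 11.89 and 11.99 over both groups. None of the 20 was called by limma (4 at an unadjusted p under 0.05), 13 were lower and the median difference was -0.024. Every CGP array lay below every CON array for 6 of the 20, against 9.95% of all tested probesets. The reverse held for 1, against 7.59%. Their averaged signal was 9.72 to 9.75 in CON and 9.67 to 9.71 in CGP, ranges that did not overlap. The average of the hypothalamic list was thus slightly lower in CGP as well. Array medians over the tested probesets differed by up to 0.0455, and no list average was computed with arrays centred on their medians. Whether so small a step exceeds such shifts was not tested. This list too was chosen with earlier results known, so that its shares are no independent evidence. The largest difference was that of Cartpt, a feeding peptide gene also found in midbrain neurons, at -0.24 (adjusted p = 0.0696 from limma), and Nkx2-1, a transcription factor of the ventral hypothalamus, differed by -0.14 (adjusted p = 0.422). Of 9 genes of the mammillary region, the part of the hypothalamus next to the midbrain, 7 were tested and none was called by limma (2 at an unadjusted p under 0.05). There 5 were lower and 2 higher, with a median difference of -0.10 and an averaged signal of 7.22 to 7.23 in CON and 7.15 to 7.16 in CGP. The ranges of this average did not overlap. Emx2 (-0.16, adjusted p = 0.412 from limma) and Lhx5 (-0.14, adjusted p = 0.517) differed most, and their part in the Rln3 result was not tested.

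**Figure D3:**
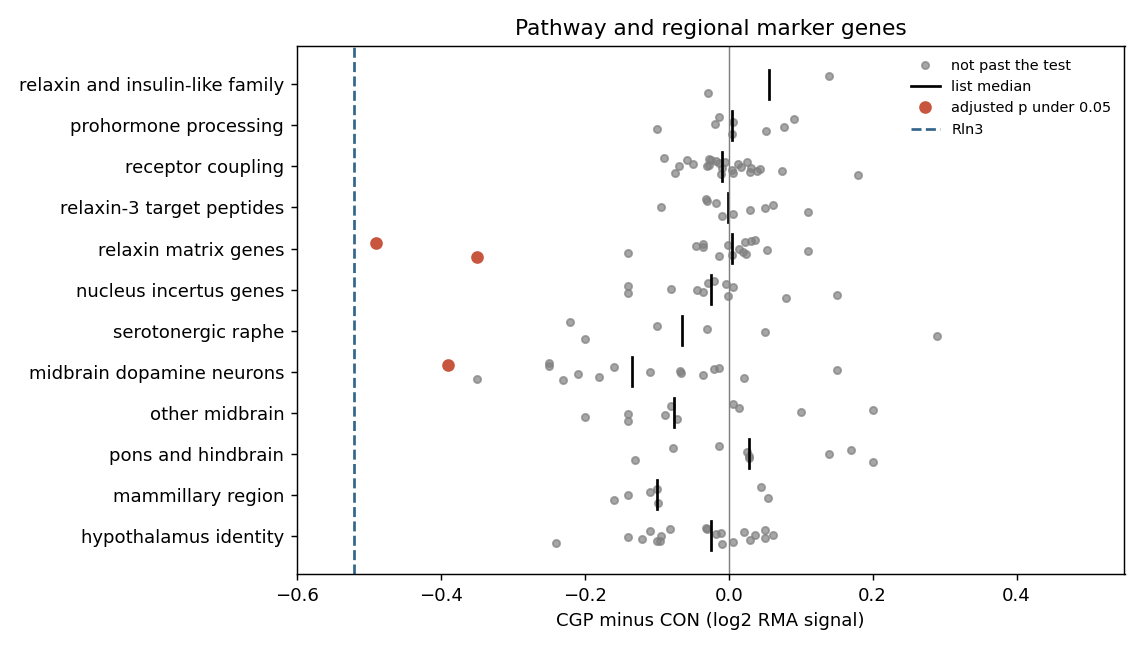
Difference in log2 RMA signal, CGP minus CON (horizontal axis), of every tested gene of the 12 lists, with 1 point for each gene, red where the adjusted p was under 0.05, a black bar at the list's median and a dashed line at the difference of Rln3 (-0.52). The red points are Timp1 and Acta2 among the matrix genes and Slc6a3 among the midbrain dopamine genes, and the medians run from -0.14 (midbrain dopamine neurons) to 0.054 (the family list of 2 genes).

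The genes next to Rln3 on its chromosome did not share its difference. RefSeq gave 0 genes overlapping Rln3, and the nearest with a probeset of their own were Il27ra, Palm3 and Misp3 on one side and Rfx1, Dcaf15 and Podnl1 on the other. Their differences were 0.11 for Il27ra, a cytokine receptor gene, -0.075 for Palm3, -0.086 for Misp3, 0.033 for the transcription factor gene Rfx1, 0.0070 for Dcaf15 and -0.034 for Podnl1. None passed the test, with adjusted p values from 0.506 for Misp3 to 0.965 for Dcaf15 (limma). For each of the 6, a fall as large as that of Rln3 lay outside the interval, which covers the spread between arrays and not that between mice.

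The profile of Rln3 over the 6 arrays was compared with those of 499 other genes whose highest and lowest array differed by at least 0.4. The 5 with the highest Pearson correlation were Timp1 (r = 0.997), Mpzl2, a cell adhesion gene (0.992), Slc6a3 (0.983), Prg4, a proteoglycan gene (0.976), and Cyp2g1, a cytochrome P450 gene of olfactory mucosa (0.972). These are descriptions over 6 arrays in 2 groups, and since the groups of Rln3 lay apart, a gene with a high r had to be lower in CGP too, so that no test is given with them. The differences were -0.49 for Timp1, -0.38 for Mpzl2, -0.39 for Slc6a3, -0.57 for Prg4 and -0.85 for Cyp2g1. Mpzl2 had signals of 8.04, 8.06 and 8.02 in CON and 7.66, 7.67 and 7.64 in CGP, close to Rln3 in the narrow spread within each group. Cyp2g1 had a CGP mean of 5.95 and a CON mean of 6.81, and so passed the filter on the mean only through the CON arrays.

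**Figure D4:**
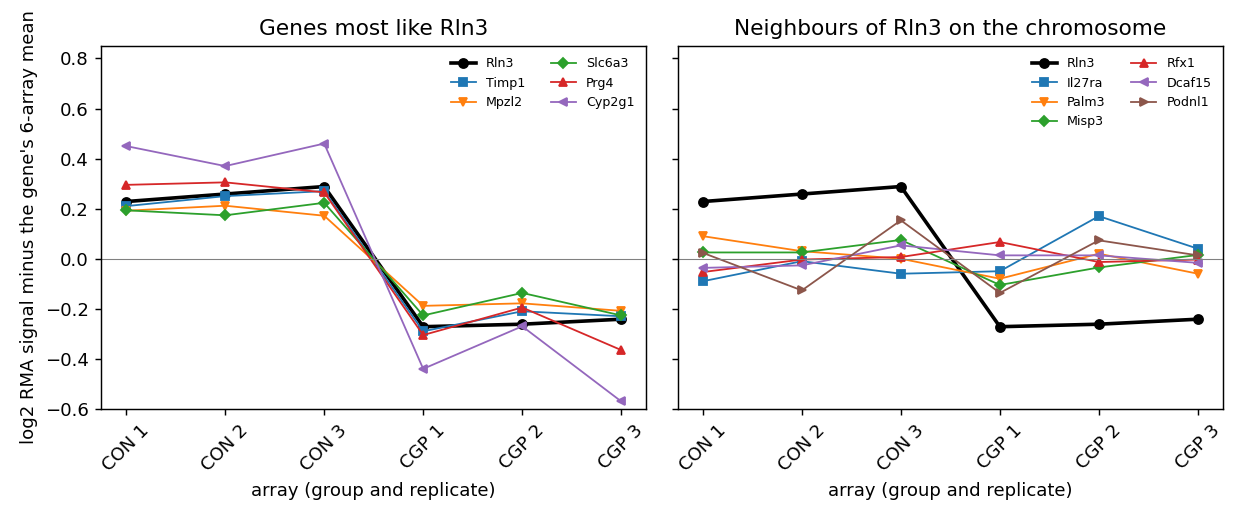
Log2 RMA signal minus the gene's mean over the 6 arrays (vertical axis) on each array (horizontal axis), for Rln3 (black) with the 5 genes most like it (left) and with its 3 nearest measured genes on each side of the chromosome (right); lines only join the values of a gene. The genes on the left step down from CON to CGP together with Rln3, and the neighbours stay close to 0, with differences from -0.086 to 0.11.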

How the data were processed

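The authors deposited their array signals on the log2 scale in 1 table of 28471 probesets. The submitters' processing notes name RMA and Partek, with no version or genome build in the sources used here. RMA shares its quantile normalization across arrays, so that a shift common to all genes of an array is removed. The values were used as deposited. No array pair held identical values, and arrays correlated at 0.996 to 0.998. Array medians lay between 8.19 and 8.21 over all probesets and differed by up to 0.0455 over the tested ones. The files hold no detection p or depth, and the number of arrays limits the precision.

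The platform annotation gave 1 gene for 18690 probesets, several for 1163 and none for 8618. Probesets with 1 gene and a mean of at least 6 (18239) were fitted with limma 3.58.1 (R 4.3.3, lmFit and eBayes, no covariate), with Benjamini-Hochberg adjustment over all of them. A gene rose or fell when its adjusted p was under 0.05. Of several probesets of a gene, the one with the highest mean stands for it. Intervals cover 95%. The fit was tested on simulated data with independent noise on each array. Arrays that share 1 pool were not simulated, so that this says nothing about the spread between mice.

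The members and the gene lists were chosen with earlier results of these data known. The genes named are the members and the family list, the called genes of each other list or otherwise the 2 with the largest absolute difference, 6 regional markers (Th, Slc6a3, Tph2, Slc6a4, Dbh and Hoxb3), the 3 measured neighbours of Rln3 on each side, and the 5 genes most like it. Others were chosen after their values were seen.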

Additional observations from a re-analysis of the deposited data

How the results depend on the processing

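Rln3 kept its sign and a difference between -0.53 and -0.50 with any 1 array left out. Its groups did not overlap and it was chosen for this difference, so the sign could not change and this is no test. The other alternatives (no signal filter, a mean of at least 7, median centring, a trended robust prior, array weights, the replicate block) moved none of the members they covered by more than 1 SD between arrays. Rxfp2 was not covered at a mean of at least 7. Over all probesets, 28 were called higher and 23 lower; these became 44 and 37 with a mean of at least 7, 113 and 136 with a trended robust prior, 39 and 38 with array weights, 2 and 4 with the replicate block, and 2 to 5 and 3 to 8 with 1 array left out. The 2 matrix genes called lower became 1 with the replicate block and 1 with any 1 array left out. The 1 midbrain dopamine gene called lower became 5 with a mean of at least 7, 7 with the trended robust prior, 4 with array weights, 0 with the replicate block and 0 to 1 with 1 array left out, 0 without any array but CGP replicate 2. The trended robust prior also called 1 receptor coupling gene and 1 nucleus incertus gene higher, and it, array weights and a mean of at least 7 called 1 hypothalamus gene lower.

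The median difference of a list moved by more than its spread between arrays for nucleus incertus genes with median centring (-0.012), for the mammillary region with array weights (-0.083), and with a mean of at least 7 for raphe (0.010), midbrain dopamine (-0.16) and pons and hindbrain genes (-0.049). With 1 array left out the medians ran from -0.0074 to 0.032 for prohormone processing, -0.016 to 0.0074 for receptor coupling, -0.033 to 0.026 for matrix genes, -0.032 to -0.0044 for nucleus incertus genes, -0.0090 to 0.091 for pons and hindbrain and -0.12 to -0.063 for the mammillary region. The cause was not tested. A left-out array leaves fewer arrays, and a higher filter fewer genes.

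Arrays with the same replicate number did not deviate together: their deviations from the group means correlated at 0.078, -0.18 and 0.11. No member had a second probeset, so that this alternative gave no value. Signal over background limits Rxfp2, Tph2 and the pons and hindbrain genes, of which 2 lay below 6. It also limits Slc6a4, Emx2, Pou4f1, Rxfp4 and Insl5, with means over the 6 arrays of 6.57, 6.70, 6.81, 6.88 and 6.89.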
